A study of Mus musculus and Rattus norvegicus with 36 samples.

Results

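Cultured oligodendrocyte progenitor cells (OPCs) from the rat cortex were compared between 3 libraries from cells given glutamate and 3 libraries from untreated cells. These are 6 of the 36 libraries in the series, which asks how the chromatin remodelling factor Baf155 (Smarcc1) and neurotransmitters act on OPCs. The other libraries come from acutely isolated mouse OPCs with and without Baf155, from mouse OPC cultures with and without GABA, and from a second rat cortex set with and without GABA. Both groups described here were wild type, so none of these 6 libraries carries a Baf155 deletion. The treated cells were kept for 2 days in a medium that lets OPCs divide and then received 200 uM glutamate for 24 h. The labels give the same growth protocol for the untreated cells, without a time of collection. The labels state neither how the rat cells were purified nor the age or number of animals. The genes were chosen by level alone: of 16437 entries with a gene symbol, the 12465 with a scaled read count of 10 or more in at least 3 of the 6 libraries were tested. A scaled read count is the number of reads on a gene divided by a size factor of its library, so it compares libraries for 1 gene and, without gene lengths, does not compare genes.

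OPCs divide and persist in the brain, and some leave the cell cycle to become premyelinating cells and then oligodendrocytes that wrap axons in myelin. They receive synapses from glutamatergic neurons and carry AMPA, kainate, NMDA and metabotropic glutamate receptors, through which glutamate admits cations or releases stored calcium. Glutamate is removed by sodium-coupled transporters of the Slc1a family, while the cystine-glutamate exchanger Slc7a11 moves it the other way.

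The 6 libraries held between 17.0 M and 17.1 M reads on genes, taking the smallest step of each library's values as 1 read. The first principal component took 51.3% of the variance and put the 3 glutamate libraries on one side and the 3 untreated libraries on the other. Replicates differed by little more than counting error: the chi-square statistic per degree of freedom over genes was 1.23 to 1.79 between libraries of 1 group, where 1 would be counting error alone; it rests on reads derived in that way. The labels do not say that replicates came from separate cultures or animals, so the p-values below measure only this narrow spread, which may be technical. All 21 OPC marker genes were measured above the minimum, among them Pdgfra at 29435 ± 199 in untreated cells and Cspg4, the NG2 proteoglycan, at 7417 ± 69.6 (scaled read counts, SD, n = 3). Genes of later stages were present in the same libraries, with Mbp, a structural protein of myelin, at 77879 ± 1442. Markers of other cells were present too, with the astrocyte filament Gfap at 11869.5 ± 156, while 5 of 8 endothelial and 8 of 18 microglial genes stayed under 10 in all 6 libraries. In RNA from a whole culture, fewer cells of a type and less RNA per cell cannot be told apart.

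Glutamate changed many transcripts by small amounts and a smaller number by a large amount. By limma's moderated test with Benjamini-Hochberg adjustment over all 12465 genes, 3524 genes (28.3%) passed an adjusted p of 0.05, of which 1753 (14.1%) were higher and 1771 (14.2%) lower with glutamate. The median change among the called genes was 1.15-fold, and the median log2 fold change over all tested genes was -0.00085. Larger changes were more often rises: 268 called genes were at least 1.5-fold higher (2.15% of those tested) and 71 at least 1.5-fold lower (0.57%). At least 2-fold rises numbered 64 (0.513%) and falls of that size 25 (0.201%). When limma tested each gene against a change of 1.2-fold instead of none, a test added after the data were seen, 241 genes were higher and 92 lower.

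**Figure D1:**
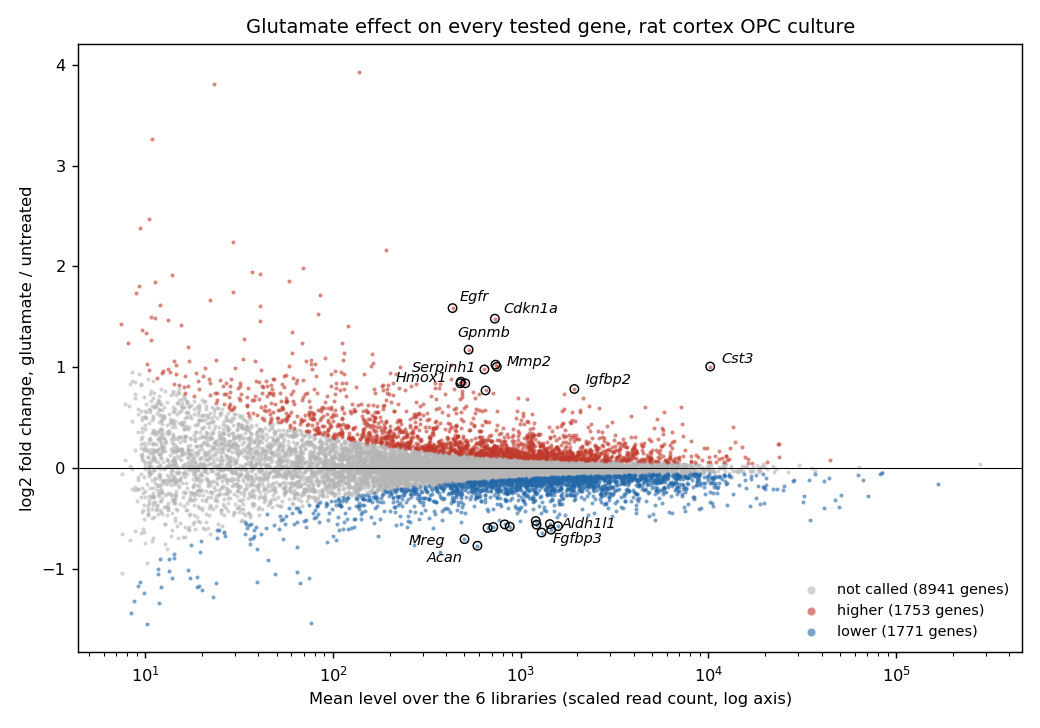
Each point is 1 of the 12465 tested genes, with its mean scaled read count over the 6 libraries on a log axis and its log2 fold change, glutamate over untreated, on the vertical axis. Red and blue mark the 1753 higher and 1771 lower genes at an adjusted p under 0.05, and grey the rest. Circles are the 12 largest rises and falls among genes whose higher group mean reached that of the median gene. They reach higher above 0 than below it.

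Among genes whose higher group mean reached that of the median gene, the largest rise was that of Egfr, the receptor for epidermal growth factor. A rise can pass this limit through its treated libraries alone, as Egfr did (means 216 untreated and 650.3 treated). Its scaled read counts were 224, 205 and 218 in the untreated libraries and 678, 632 and 641 with glutamate. Its log2 fold change was 1.59 ± 0.06 (SE) at an adjusted p of 8.79e-35 by limma. Lack of overlap between the groups was a condition for the largest rises and falls, so it is no separate result. Cdkn1a, which encodes the cyclin-dependent kinase inhibitor p21, came next, at 377, 377 and 395 untreated and 1062, 1126 and 1029 with glutamate. Its log2 fold change was 1.48 ± 0.05 (adjusted p = 1.45e-39, limma). Cst3, which encodes the secreted protease inhibitor cystatin C, had the lowest adjusted p of all tested genes, 1.93e-53, and its counts were 6703, 6729 and 6919.8 untreated against 13716, 13462 and 13738 treated. The log2 fold change of Cst3 was 1.01 ± 0.02.

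The counts of Mmp2, a secreted gelatinase that cuts matrix proteins, rose from 498, 464 and 487 to 972, 989 and 992 (log2 fold change 1.03 ± 0.05). Gpnmb, a transmembrane glycoprotein, stood at 323, 334 and 313 untreated and 741, 731 and 722 treated (log2 fold change 1.17 ± 0.06). Serpinh1, a collagen chaperone, rose by 1.01 ± 0.05 and Igfbp2, a binding protein for insulin-like growth factors, by 0.78 ± 0.03 on the log2 scale. The remaining 5 of the 12 largest rises were Asns, the asparagine synthetase (0.98), Hmox1, the heme-degrading heme oxygenase 1 (0.86), the tubulin gene Tubb6 (0.84), the sortilin-family receptor gene Sorcs2 (0.84) and the actin-bundling plastin gene Pls3 (0.77), all log2 fold changes. That no untreated library reached a treated one in these genes was set by their choice.

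The largest falls were smaller than the largest rises. Acan, which encodes the matrix proteoglycan aggrecan, led them with counts of 739.6, 725 and 758 in untreated and 424, 433 and 445 in treated libraries. The log2 fold change of Acan was -0.77 ± 0.05 (adjusted p = 9.25e-22, limma). Matn4, for the matrix protein matrilin-4, fell as well, with counts of 1375, 1431 and 1536 against 959, 1002 and 977. The folate enzyme gene Aldh1l1, widely used as an astrocyte marker, had counts of 1763, 1726 and 1773 untreated and 1088, 1221 and 1141 treated. The orphan receptor gene Gpr37l1, also on the astrocyte list, had a log2 fold change of -0.52 ± 0.04. Grin3a, an NMDA receptor subunit, dropped from 849.8, 857 and 862 to 553, 575 and 585. The other 7 of the 12 largest falls were Mreg (-0.70), the fibroblast growth factor binding protein gene Fgfbp3 (-0.64), the receptor phosphatase gene Ptprt (-0.59), Thsd7b (-0.58), the caveolin gene Cav1 (-0.58), Dock9 (-0.56) and the kinesin-family gene Kif26a (-0.56), each a log2 fold change. Each of the 12 rises and 12 falls kept its direction and its call under every setting tried other than the test against a 1.5-fold change, which 11 of the 24 passed.

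**Figure D2:**
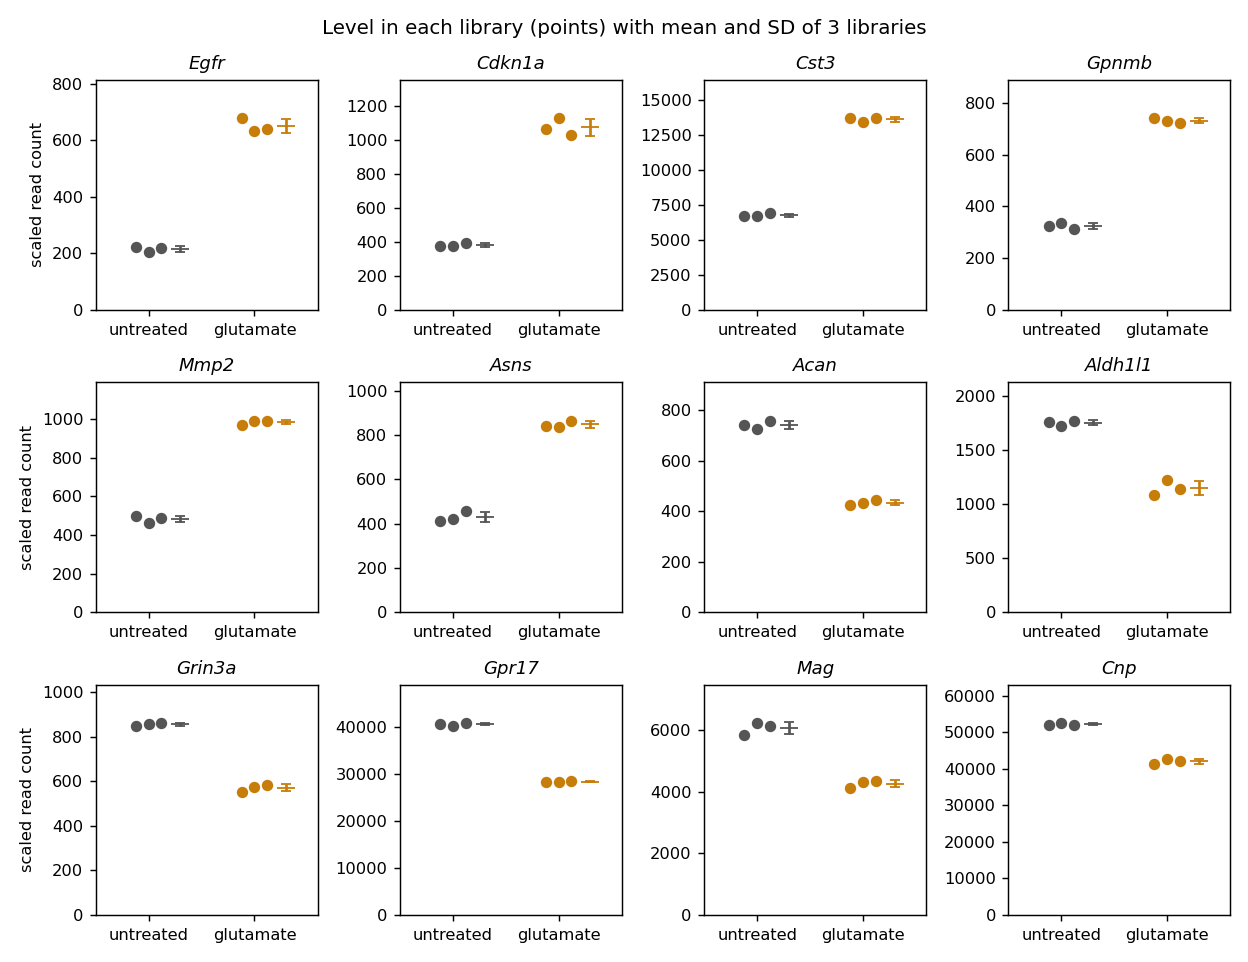
Scaled read counts (vertical axes from 0) of 12 genes in each of the 3 untreated and 3 glutamate libraries, as points, with the mean and SD beside them. The genes were picked for a lack of overlap or a low p, so their separation is no separate result. Untreated and glutamate means run from Egfr (216 and 650.3) to Cnp (52248 and 42063).

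Genes of the committed and premyelinating stages fell almost throughout. Of 17 tested genes of that list, 16 were lower and 1 was higher, with a median log2 fold change of -0.26; 14.2% of all genes were lower. Gpr17, a receptor made transiently as OPCs commit, had counts of 40686, 40367 and 40892 in untreated and 28374, 28393 and 28441 in treated libraries, a log2 fold change of -0.52 ± 0.02 (adjusted p = 1.45e-39, limma). Its groups were separated by many times the spread within each. Nfasc, for the adhesion protein neurofascin, fell from 56038 ± 310.2 to 42834 ± 342, and the tensin gene Tns3 from 18849.7 ± 101 to 14553 ± 105 (SD, n = 3). The deacetylase gene Sirt2 fell from 35317 ± 327 to 28063 ± 459. The one higher member was the ephrin receptor gene Epha7, at 422, 390.0 and 449 untreated and 456, 484 and 489 treated. Its call (adjusted p = 0.0157, limma) was lost without untreated replicate 2, glutamate replicate 2 or glutamate replicate 3, which left 0 higher members. Against a 1.2-fold change 5 members were lower.

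Myelin and oligodendrocyte genes fell or did not pass. Of 24 tested, 12 were lower, 0 higher and 12 not called, where 14.2% of all genes were lower. The median log2 fold change was -0.26, and without glutamate replicate 1 there was 1 higher member. Mag, the myelin-associated glycoprotein, had counts of 5843, 6223 and 6137 untreated and 4114, 4326 and 4331 treated (log2 fold change -0.51 ± 0.03, adjusted p = 5.36e-29, limma). Every treated library lay below every untreated one. Cnp, a myelin-associated phosphodiesterase, fell from 52248 ± 269.7 to 42063 ± 732, Ugt8, the enzyme that makes galactosylceramide for myelin, from 14108 ± 216 to 10938 ± 111, and Mbp from 77879 ± 1442 to 64343 ± 899. Mog, a late surface protein of myelin, was near the minimum in both groups, at 15.2, 21.2 and 15.1 untreated and 11.9, 11.8 and 10.8 treated, and its change was not called. Against a 1.2-fold change 5 members were lower.

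OPC markers moved in both directions, more of them downward. Of 21 tested, 12 were lower, 4 higher and 5 not called, against 14.2% lower and 14.1% higher among all genes. The median log2 fold change of the list was -0.13. Gpr17 and Matn4, described above, are members, and the next by p were Tnr, for the matrix glycoprotein tenascin-R (from 21269 ± 264 to 16574 ± 203), and Nkx2-2, a homeodomain factor of the lineage (from 2814 ± 90.3 to 2071 ± 61.8), all of them lower. The platelet-derived growth factor receptor gene Pdgfra was lower by a small amount, 29633, 29234 and 29437 against 26914, 27199.5 and 26718 (log2 fold change -0.13 ± 0.02). Cspg4 was not called at 7345, 7421 and 7484 against 7115, 7275 and 7244, values that lay close together. The factor gene Olig1 was higher (0.11 ± 0.02) and Olig2 lower (-0.06 ± 0.02), both on the log2 scale; the libraries of Olig2 overlapped between the groups. The summed counts of the 21 markers were 246472 to 247285 untreated and 223041 to 224885 treated, and those of the committed list were 281120 to 283346 and 222498 to 223824. Gpr17 is in both sums, so they are not separate. It accounts for 40686, 40367 and 40892 of the counts untreated and 28374, 28393 and 28441 treated.

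Transcription factors of the lineage were called in both directions. Of 31 tested, 10 were lower and 8 higher, against 14.2% and 14.1% of all genes. Myrf, the factor that drives myelin genes, fell from 11320.3 ± 61.5 to 8951 ± 116 (log2 fold change -0.34 ± 0.02), and Sox10, a factor of the whole oligodendrocyte lineage, from 14721 ± 263 to 12332 ± 427 (-0.26 ± 0.02). Sox8, a relative of Sox10, fell from 6328 ± 115 to 4992 ± 169.6. All 3 treated libraries were below all untreated ones in each of these genes. Among the higher members were Olig1, Sox9 (0.13), Sox11 (0.26), Nfib (0.21), Nfix (0.20), Prrx1 (0.50) and Hes1 (0.35), all log2 fold changes and named after their values were seen.

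Genes listed for astrocytes rose more often than they fell. Of 17 tested, 11 were higher and 3 lower, against 14.1% higher and 14.2% lower among all genes. The median log2 fold change was 0.13, and the summed counts of the list were 50119 to 50302 untreated and 58948 to 59103 treated. Slc1a3, a glutamate transporter that OPCs express as well, had counts of 11621, 11817 and 11361 untreated and 15721, 15267 and 15232 treated (log2 fold change 0.41 ± 0.02, adjusted p = 5.36e-29, limma). Every treated library was above every untreated one. The sodium pump subunit gene Atp1b2 rose from 2075 ± 46.5 to 3133 ± 88.1, and Gja1, the gap junction protein connexin 43, from 1365 ± 42.5 to 2051 ± 26.8. The defining genes did not all move together: Aqp4, the water channel of astrocyte endfeet, rose by 0.32 ± 0.02 and Gfap by 0.12 ± 0.02, while Aldh1l1 fell as given above. The part of a change in astrocyte content in these results was not tested.

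**Figure D3:**
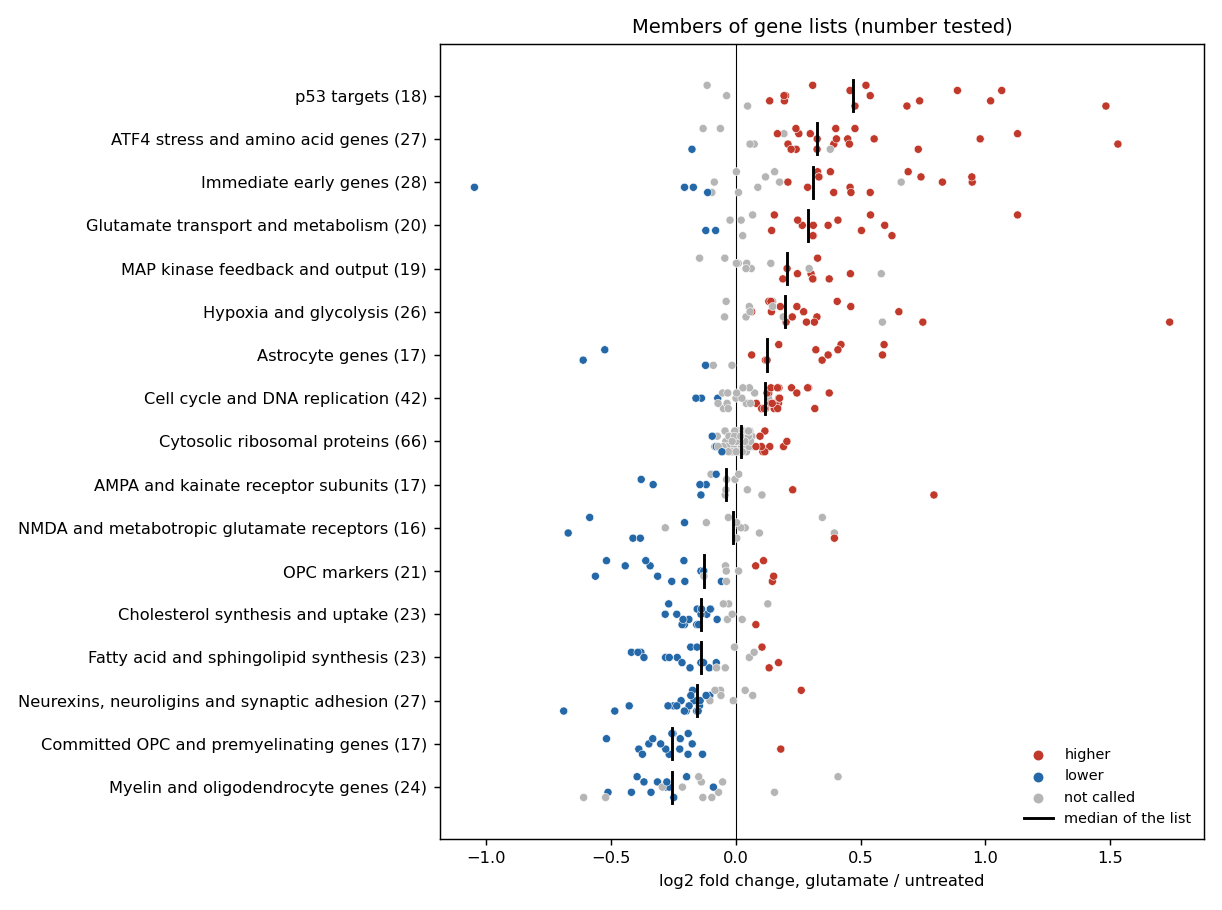
Log2 fold change, glutamate over untreated (horizontal axis), of every tested member of 17 gene lists, 1 row per list with the number tested in brackets. Red is higher, blue lower and grey not called at an adjusted p under 0.05, and black bars are list medians, which run from 0.47 for p53 targets to -0.26 for committed OPC and myelin genes.

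Markers of other cell types were low or mixed, where 28.3% of all genes were called in either direction. Of 21 neuron genes 6 were higher and 3 lower, and their summed counts were 26957 to 27437 untreated and 24615 to 25177 treated. The fall came mainly from Dcx, a microtubule protein of migrating cells (from 8390.2 ± 281 to 6421 ± 144), while the glycolytic enzyme gene Eno2 rose from 1118 ± 49.4 to 1342 ± 33.8 and the neuronal nuclear protein gene Rbfox3 was not called at 159.7 ± 9.72 and 164 ± 7.99. Gad1 and Gad2, whose enzymes make GABA, are on the neuron list too and were higher. Gad1 had counts of 213, 212 and 249 untreated and 316, 338 and 302 treated. Those of Gad2 were 71.7, 68.7 and 73.4 against 120, 105 and 101. Of 5 tested microglial and myeloid genes 2 were higher, one of them the receptor gene Csf1r, whose counts were 15.2, 9.09 and 17.1 untreated and 30.7, 20.6 and 32.5 treated. The summed counts of the 18 microglial genes were 709 to 773 untreated and 899 to 924 treated, with Cx3cr1, Tmem119, C1qc, Aif1, Itgam, Tyrobp, Trem2 and Fcer1g under 10 in all libraries. Of 3 tested endothelial genes none was called, at summed counts of 109 to 122 untreated and 105 to 117 treated. Of 9 mural, meningeal and fibroblast genes 2 were higher and 3 lower, with the matrix protein gene Fn1 rising from 149 ± 11 to 285 ± 29.6 and the actin-binding protein gene Tagln falling from 1115 ± 19.5 to 839 ± 19.4; the summed counts were 1782 to 1788 and 1620 to 1698. Of 7 Schwann cell genes 1 was higher, Pmp22 (0.43), and 1 lower, Sox10, which oligodendrocyte cells also express; the summed counts were 15441 to 15958 and 13298 to 14119. No listed marker was at 0 in all 6 libraries, and the part of these cell types in the results was not tested.

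The receptors for glutamate itself fell more often than they rose. Tested log2 fold changes ran from -0.38 to 0.79 for AMPA and kainate genes and from -0.67 to 0.40 for NMDA and metabotropic genes. Of 17 AMPA and kainate receptor subunits and auxiliary proteins, 6 were lower, 2 higher and 9 not called (median log2 fold change -0.04). The called share was 47.1%, against 28.3% of all genes. Only 1 member was higher without untreated replicate 1 or 3 or glutamate replicate 1 or 3. Gria2, the AMPA subunit that limits calcium entry, had counts of 11214, 10946 and 10641 untreated and 10198, 9784 and 9724 treated (log2 fold change -0.14 ± 0.02, adjusted p = 1.33e-07, limma). Gria4 was lower (-0.08), whereas Gria1 (0.05) and Gria3 (1897 against 1893) were not called. The kainate subunit gene Grik4 fell from 490.4 ± 55.6 to 388 ± 14.9, and the auxiliary subunits Cacng4, Cacng7 and Cacng8, which steer AMPA receptors to the membrane, had log2 fold changes of -0.14, -0.12 and -0.38. The higher members were Cnih3 (22.9 to 39.8) and Shisa9 (200.4 to 235), both auxiliary proteins.

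Of 16 NMDA and metabotropic receptor genes with their scaffolds, 5 were lower and 1 higher, a called share of 37.5% against 28.3% of all genes. Grin1, the obligatory NMDA subunit, had counts of 344, 356 and 364 untreated and 245, 269 and 286 treated (log2 fold change -0.41 ± 0.07). Its fall went with those of Grin3a, given above, and Grin3b (-0.38), while Grin2b, Grin2c and Grin2d, at treated means of 20.4, 34.5 and 14.8, were not called. The scaffold gene Homer1 fell from 2905 ± 102 to 2521 ± 104. The one higher gene was Grm5, a metabotropic receptor coupled to calcium release, with counts of 391, 412 and 441 against 559, 531 and 546 (log2 fold change 0.40 ± 0.06). Grm7 was lower at a low level, 32.9 to 20.1, and Grm3 was not called at 146 and 147.

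Transport and metabolism of glutamate moved the other way. Of 20 tested genes 14 were higher and 2 lower, with a median log2 fold change of 0.29, where 14.1% of all genes were higher; 5 were higher against a 1.2-fold change. Beside Slc1a3, given above, the sodium-coupled transporter Slc1a2 rose from 521 ± 17.3 to 674 ± 12.7, and Slc1a1 fell from 3548 ± 42.1 to 3266 ± 63.7. Slc1a4, a carrier of neutral amino acids, rose from 933 ± 25.9 to 1356 ± 11.1, and Slc38a2, which takes up neutral amino acids such as glutamine, from 7297 ± 199 to 8777 ± 50. Slc7a11, the exchanger that imports cystine and exports glutamate, rose from 101 ± 8.33 to 221 ± 12.1, a log2 fold change of 1.13 ± 0.10 (adjusted p = 4.78e-16, limma). The treated libraries of Slc7a11 held more than any untreated one by a wide margin. The enzymes that make GABA from glutamate were also higher, Gad1 by 0.50 and Gad2 by 0.60 on the log2 scale. Among mitochondrial and cytosolic enzymes, Got1 (0.31), Oat (0.31), Aldh18a1 (0.31) and Gpt2 (0.15) were higher, Glul, which turns glutamate into glutamine, was slightly lower (-0.08), and Glud1, Gls2 and Got2 were among those not called.

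Genes for GABA signaling, calcium and other ion channels gave mixed counts. Called shares were 61.1% of the GABA, 33.3% of the calcium and 46.2% of the sodium and potassium channel genes, against 28.3% of all genes. Of 18 genes of GABA receptors and of GABA and chloride transport, 8 were lower and 3 higher; 5 were lower without glutamate replicate 1. The receptor subunit Gabrg1 fell from 1076 ± 42 to 866 ± 41.7 and Gabrb1 rose from 88.8 ± 11.8 to 146 ± 17.6. Of 27 voltage-gated calcium channel and calcium handling genes 6 were lower and 3 higher, led by Itpr2, a calcium release channel of the endoplasmic reticulum (from 11496 ± 139 to 9661 ± 61), and by the calcium pump gene Atp2b4 (from 257 ± 23.9 to 375 ± 24.4). Of 26 sodium and potassium channel genes 9 were higher and 3 lower. Kcnip3, a calcium-binding regulator of potassium channels, rose from 2139 ± 16.3 to 2628 ± 57.8, and the potassium channel genes Kcna2 and Kcnn2 from 692 ± 34.4 to 909.5 ± 35.3 and from 125 ± 1.7 to 211 ± 19.7.

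Targets of the transcription factor p53, which responds to DNA damage and other stress, rose as a group. Of 18 tested, 15 were higher and 0 lower, where 14.1% of all genes were higher. The median log2 fold change, 0.47, was the highest of the lists, and 10 were higher against a 1.2-fold change. Beside Cdkn1a, the death domain receptor gene Eda2r had counts of 267, 284 and 285 untreated and 572, 546 and 581 treated (log2 fold change 1.02 ± 0.06, adjusted p = 2.21e-24, limma). The cyclin G1 gene Ccng1 rose from 3184 ± 94.5 to 4571 ± 72.5, and Aen, a nuclease induced in apoptosis, from 363 ± 14.6 to 584 ± 14.3. All 3 were separated between the groups. Mdm2, the p53 antagonist and itself a p53 target, was not called, at 1183, 1143 and 1129.8 untreated and 1197, 1159.7 and 1216 treated; it was singled out after its values were seen.

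Cell cycle and replication genes were more often higher than lower, by small amounts. Of 42 tested, 24 were higher, 3 lower and 15 not called, against 14.1% higher and 14.2% lower among all genes. The median log2 fold change was 0.12. Only Ccnd1 was higher against a 1.2-fold change, and 1 gene was lower without untreated replicate 1 or 3. Ccnd1, the cyclin D1 gene, had counts of 4890.4, 5089 and 4995 untreated and 6520.1, 6434 and 6458 treated (log2 fold change 0.37 ± 0.02). The cyclin D2 gene Ccnd2 rose from 4088 ± 116 to 4773 ± 99, and Tyms, the thymidylate synthase, from 1332 ± 55.1 to 1659 ± 18.5. The inhibitor gene Cdkn1c (p57), which is on the same list, rose from 4329 ± 50.1 to 5301 ± 135. Mki67, the proliferation marker, was not called at 5492, 5407 and 5376 against 5565, 5447 and 5310.3, and was also singled out after its values were seen.

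Early response genes were called in both directions 24 h after glutamate was added, more of them higher. Of 28 tested, 14 were higher, 4 lower and 10 not called, against 14.1% higher and 14.2% lower among all genes. The median log2 fold change of the list was 0.31, and 2 were lower without glutamate replicate 1. Fos, a subunit of the AP-1 transcription factor, had counts of 139, 134 and 136 untreated and 265, 270.3 and 257 treated (log2 fold change 0.95 ± 0.09, adjusted p = 2.99e-15, limma). Its partner gene Jun rose from 915 ± 25.1 to 1261 ± 61.6, the antiproliferative gene Btg2 from 569 ± 15.3 to 782 ± 32.1, and the zinc finger factor gene Egr1 from 1489 ± 83.2 to 1868 ± 45. None of the 4 overlapped between the groups, and Fos had the largest fold of them. The 4 lower members were the zinc finger factor gene Egr3, with the largest change of the list (from 66.6 ± 13.8 to 31.6 ± 5.41, log2 fold change -1.05 ± 0.18), Myc (-0.11), Srf (-0.17) and Homer1 (-0.20), named after their values were seen. Of 19 genes that follow MAP kinase activity, 9 were higher and 0 lower, against the same shares of all genes. Without untreated replicate 3 there was 1 lower member. The ETS factor genes Etv1 and Etv4 rose from 3470.5 ± 74.9 to 4302 ± 59.2 and from 551 ± 18.1 to 757 ± 16.1.

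Genes of the amino acid response driven by the transcription factor ATF4 were higher. Of 27 tested, 20 were higher and 1 lower, where 14.1% of all genes were higher. The median log2 fold change was 0.33, and 9 were higher against a 1.2-fold change. Asns had counts of 412, 421 and 458 untreated and 843, 838 and 866 treated (log2 fold change 0.98 ± 0.05, adjusted p = 7.59e-28, limma). Amino acid carriers rose with it: Slc7a1, for cationic amino acids, from 1516 ± 28.2 to 2226 ± 25.4, Slc7a5, for large neutral ones, from 4439 ± 110.0 to 5859.5 ± 57.1, and Slc3a2, the partner chain of Slc7a5 and Slc7a11, from 2589 ± 75.1 to 3550.4 ± 103. The largest fold of the list, picked for that reason, was Chac1, an enzyme that degrades glutathione, at 41.4, 41.4 and 43.2 against 129.9, 123 and 117.

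Other stress programs changed less, and their counts stand against 14.1% higher and 14.2% lower among all genes. Of 20 genes of the unfolded protein response and its chaperones 8 were higher and 0 lower at a median log2 fold change of 0.04, led by Herpud1, which serves protein degradation at the endoplasmic reticulum (from 356 ± 23.2 to 483 ± 21.3), with 0 past a 1.2-fold change. Of 12 cytosolic heat shock genes 5 were higher, and 3 without untreated replicate 1 or 2 or glutamate replicate 1 or 3; Bag3, a co-chaperone, rose from 98.9 ± 11.7 to 132 ± 5.61. Of 23 targets of the antioxidant factor NRF2, 6 were higher and 4 lower (median 0.01). Within that list Hmox1 had counts of 326, 377 and 321 untreated and 604, 632 and 617 treated and Txn1, thioredoxin, rose from 1836 ± 52.8 to 2246 ± 69.1, while the glutathione transferase gene Gsta1 fell from 91.8 ± 3.45 to 41.4 ± 6.86. The metallothionein gene Mt3 rose from 1339 ± 80.4 to 1983 ± 60.1 and Mt2A from 52.1 ± 2.93 to 109 ± 19, 2 of the 3 higher members among 7 metal response genes.

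Lipid synthesis genes were lower by small amounts. Among all genes 14.1% were higher and 14.2% lower. Of 23 cholesterol synthesis and uptake genes 15 were lower and 1 higher (median log2 fold change -0.14), and 0 were lower against a 1.2-fold change. Mvd, a decarboxylase of the mevalonate pathway, had counts of 1594, 1700.3 and 1638 untreated and 1316, 1401 and 1381 treated (log2 fold change -0.27 ± 0.04). The acetyl-CoA acetyltransferase gene Acat2 fell from 4752 ± 197 to 4120.0 ± 124, and each treated library was below each untreated one in both genes. Of 23 fatty acid and sphingolipid genes 15 were lower and 3 higher (median -0.14), 4 of them lower against a 1.2-fold change. The acyl-CoA synthetase gene Acsl3 fell from 11974 ± 142 to 9204 ± 56.8, the desaturase gene Scd from 10391 ± 100.2 to 7923 ± 123, and Fa2h, which hydroxylates the fatty acids of myelin lipids, from 1523 ± 36.7 to 1140.0 ± 7.49. Of 12 genes for cholesterol efflux and targets of liver X receptors 5 were lower and 0 higher, among them the lipocalin gene Apod (from 475 ± 22.9 to 266 ± 19.6) and Apoe, the lipoprotein of brain cholesterol transport (from 10921 ± 182 to 10191 ± 226; not called under quantile normalization).

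Of 26 hypoxia and glycolysis genes 17 were higher and 0 lower (median log2 fold change 0.20), where 14.1% of all genes were higher. Vegfa, the vascular growth factor, had counts of 526, 525 and 531 untreated and 871, 859 and 934 treated (log2 fold change 0.75 ± 0.05). The lactate dehydrogenase gene Ldha rose from 1534 ± 18.4 to 2113 ± 101, the triose phosphate isomerase gene Tpi1 from 1349 ± 42.9 to 1788 ± 18.1 and the phosphoglycerate mutase gene Pgam1 from 2823 ± 37.5 to 3436 ± 52.4. Of 27 nuclear genes of the respiratory chain 8 were higher and 0 lower at a median of 0.06, a called share of 29.6% against 28.3% of all genes, led by Ndufa4 (from 1519 ± 96.7 to 1775 ± 23); 5 were higher without untreated replicate 1 or glutamate replicate 2, and 1 was lower without untreated replicate 1. Of 66 cytosolic ribosomal protein genes 54 were not called, 9 were higher and 3 lower, a called share of 18.2%. The higher ones numbered 4 without untreated replicate 1, 3 without glutamate replicate 3 and 19 under quantile normalization, and the lower ones 5 without untreated replicate 1 and 1 without untreated replicate 2 or 3.

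Synaptic adhesion genes fell more often than they rose, and matrix genes were split. Among all genes 14.1% were higher and 14.2% lower. Of 27 neurexin, neuroligin and synaptic adhesion genes 19 were lower and 1 higher (median log2 fold change -0.16; 2 were higher without glutamate replicate 1). Dscam, a cell adhesion gene, had counts of 1714, 1759.9 and 1676 untreated and 1268, 1312 and 1251 treated (log2 fold change -0.43 ± 0.04), and the synaptic adhesion gene Slitrk2 fell from 4343 ± 102 to 3688 ± 64.6. The one higher gene was Cntn1, a contactin (from 12544 ± 131 to 15049.5 ± 295). Of 30 matrix and remodeling genes 11 were higher and 9 lower (median 0.01), with Mmp2 on one side and Acan, Tnr and Adamts4, the protease that cuts aggrecan (from 2697 ± 83.1 to 2122 ± 51.7), on the other. Of 25 growth factor and receptor genes 9 were higher and 5 lower, and 6 were higher against a 1.2-fold change, with Igfbp5 (from 1814 ± 50.3 to 2782 ± 17.5) after Egfr and Igfbp2.

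Counts in the signaling and lysosomal lists stand against 14.1% higher and 14.2% lower among all genes. In the Notch pathway 5 of 17 were higher and 1 lower (3 higher without glutamate replicate 2): the receptor gene Notch2 rose from 1213 ± 51.2 to 1607 ± 57.7 and the ligand gene Jag1 from 172 ± 14.8 to 269 ± 35.7, while the ligand gene Jag2 fell from 274 ± 20.3 to 186 ± 9.66. Of 12 Wnt genes 2 were higher, the secreted antagonists Sfrp1 (0.28) and Dkk3 (0.57), and 2 lower, or 1 without untreated replicate 3. Of 15 BMP and TGF-beta genes 3 were higher, led by the ligand gene Tgfb2 (from 1566 ± 54.9 to 2178 ± 46.8), and 2 lower, led by the ligand gene Bmp4 (from 2648 ± 95.1 to 2182 ± 75.3). Of 6 interferon genes 1 was higher, Stat2 (0.18); without untreated replicate 2 or 3 or glutamate replicate 1 there were 2. Of 11 NF-kB and cytokine genes 3 were higher, and 1 without untreated replicate 2 or glutamate replicate 2, the adhesion gene Vcam1 (0.26) having the lowest p. Of 21 lysosomal genes 11 were higher, led by the hexosaminidase gene Hexa (from 964 ± 11.6 to 1185 ± 30.4), and 2 lower, one of them Tfeb, a regulator of lysosomal genes (from 524 ± 3.36 to 393 ± 7.39); 1 was lower without untreated replicate 1 or 3 or glutamate replicate 3.

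Chromatin remodelers of the BAF and CHD families, the subject of the wider series, were called at 32.4%, against 28.3% of all genes. Of 34 tested, 9 were lower, 2 higher and 23 not called (median log2 fold change -0.04), where 14.2% of all genes were lower, and 0 passed a 1.2-fold change in either direction. The lower ones numbered 5 without untreated replicate 3, and the higher ones 1 without untreated replicate 2, glutamate replicate 2 or glutamate replicate 3. Smarcc1, which encodes Baf155, had counts of 5227, 5086 and 5365 untreated and 5212, 5069 and 5028 treated and was not called. The helicase gene Chd3 fell from 2901 ± 60.9 to 2442 ± 29.3 and the BAF subunit gene Smarcd1 from 3442 ± 44.5 to 3058 ± 86.6.

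The second rat cortex set, in which cells received GABA at the same 200 uM for 24 h, allowed the response to glutamate to be set against that to another transmitter. Each set had its own 3 untreated libraries and was scaled on its own, so only changes within a set were compared. The fit took 12675 genes listed in both sets with 10 or more in at least 3 of the 12 libraries. A single group could supply these libraries, and 12334 of the genes reached 10 in at least 3 libraries of the glutamate set. Limma found a glutamate effect that differed from the GABA effect in 2593 genes (20.5%). The difference was above 0 in 1267 (10%) and below 0 in 1326 (10.5%). In the same fit 3228 genes were called with glutamate and 3119 with GABA (24.6%). Both transmitters called 1267 genes, 798 of them in the same direction and 469 in opposite directions. The 798 are 24.7% of the glutamate calls and 25.6% of the GABA calls. Calls with GABA in a given direction were rarer among all genes, at 12.7% higher and 11.9% lower. The size of the overlap was not tested.

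Committed and myelin genes had opposite signs under the transmitters in many cases. Of 24 myelin genes the difference was below 0 in 17 and above 0 in 1, against 10.5% and 10% of all genes. With GABA 11 of the 24 were higher, against 12.7% of all genes. Mag had a log2 fold change of -0.51 with glutamate and 0.32 with GABA, a difference of -0.83 ± 0.04 (SE) at an adjusted p of 8.69e-24 by limma. Mbp had changes of -0.28 and 0.36, down with glutamate and up with GABA. Among 17 committed OPC genes the difference was below 0 in 15, against the same 10.5%. With GABA 8 of the 17 were higher and 4 lower, against 12.7% and 11.9% of all genes. Nfasc, at -0.39 and 0.28, had opposite signs too, whereas Gpr17 was lower with both, at -0.52 and -0.13 (difference -0.39 ± 0.03, adjusted p = 1.84e-15).

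**Figure D4:**
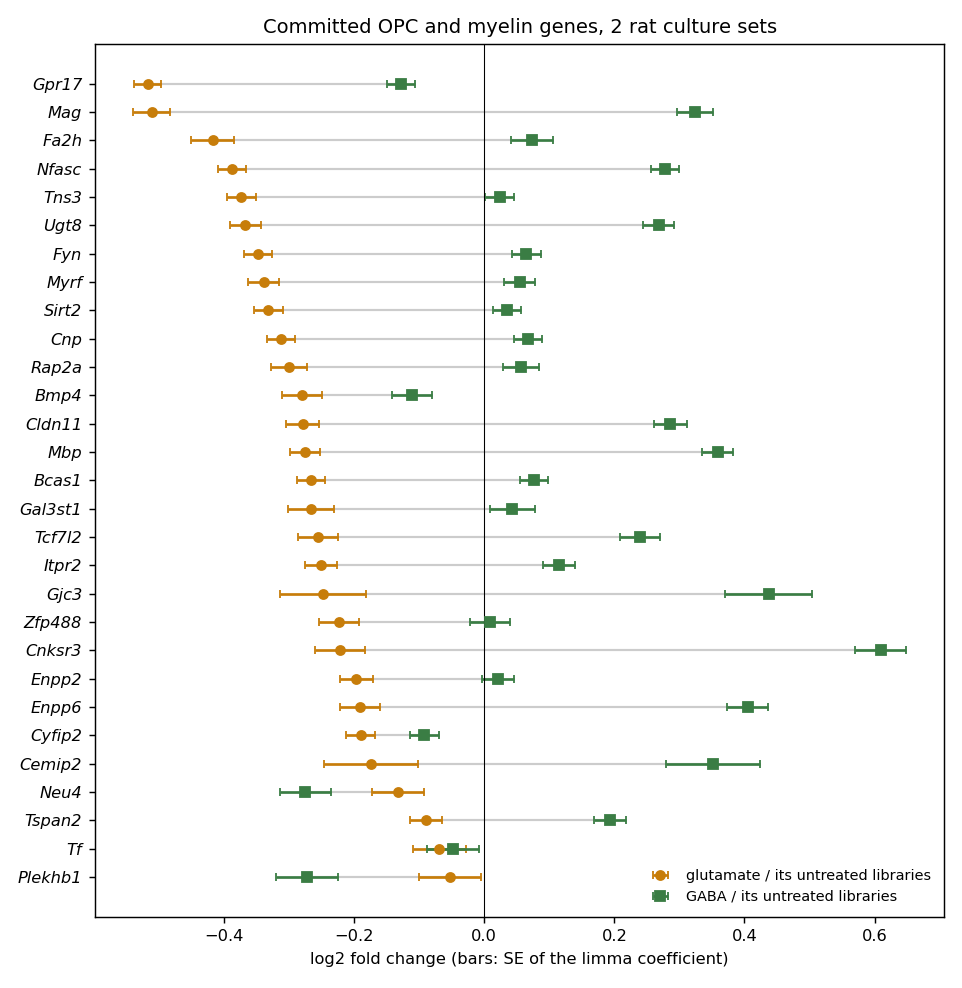
Log2 fold change with its SE for 29 committed OPC and myelin genes with an untreated mean of at least 500, with glutamate (circles) and with GABA (squares), each against the untreated libraries of its own set. All 29 lie below 0 with glutamate, and 23 lie above 0 with GABA.

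Other lists differed between the transmitters as well. Among all genes the difference was above 0 in 10% and below 0 in 10.5%. Of 42 cell cycle genes 32 had a difference above 0 and 1 below, and 30 of the 42 were lower with GABA, where 11.9% of all genes were lower. Of 55 ribosomal protein genes in the fit of 12 libraries 44 had a difference above 0, with 54 lower with GABA. Of 18 p53 targets 9 had a difference above 0 and 0 below: Cdkn1a rose with both, by 1.48 and 0.85 on the log2 scale, and the difference was 0.64 ± 0.08 (adjusted p = 3.48e-09, limma). Of 27 amino acid response genes, 20 were higher in each set, where 14.1% of all genes were higher with glutamate and 12.7% with GABA. The difference was above 0 in 5 of the 27 and below 0 in 5. Asns rose by 0.98 and 0.96, a difference of 0.02 ± 0.07 (adjusted p = 0.909), and Slc7a11 rose by 2.32 with GABA and 1.13 with glutamate (difference -1.19 ± 0.16, adjusted p = 2.67e-08).

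Single genes were ranked if the highest of their group means reached that of the median gene. Gpnmb had the largest difference above 0, 0.88 ± 0.07, from 1.17 with glutamate and 0.29 with GABA. Cst3 followed with 1.01 and 0.15, and Igfbp5 rose with glutamate and fell with GABA, 0.62 and -0.15. Yap1, a growth-regulating coactivator, and Pon2, a paraoxonase, rose with glutamate, by 0.70 and 0.75, and were not called with GABA, at -0.01 and 0.08. Egfr rose with both, by 1.59 and 0.89. The largest differences below 0 were those of Ptprt (-0.59 and 0.59), the lysophosphatidic acid receptor gene Lpar1 (-0.27 and 0.85), Tagln (-0.41 and 0.60), the zinc transporter gene Tmem163 (-0.45 and 0.56), the small GTPase gene Rras2 (-0.41 and 0.57) and Adamts4 (-0.35 and 0.49), each lower with glutamate and higher with GABA. The untreated libraries of the sets did not start from the same levels, as far as separately scaled tables can show: the mean untreated count of Cst3 was 6784 in the glutamate set and 13303 in the GABA set, and that of Egfr was 216 and 54.4. The part of these starting levels in the differences was not tested.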

How the data were processed

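Single-end reads of 50 bases from poly(A)-selected RNA were counted per gene and normalized by the authors; the deposited signal values are read counts divided by 1 size factor per library, since every value was a whole multiple of the smallest one (tolerance 1e-06). Per the submitters' processing notes HISAT, Bowtie2 and DESeq2 were used. The only genome build named for these rat libraries is GRCm38.p6, a mouse assembly. No rat genome build is given in the labels, notes or files used. The 2915 entries without a symbol held 1.66% to 1.70% of the values and were left out, as were exact repeats.

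Values were taken as log2(value + 1) and fitted with limma 3.58.1 in R 4.3.3 (trended variance, Benjamini-Hochberg adjustment, called at an adjusted p under 0.05), with genes at 10 or more in at least 3 of 6 libraries. A fold change on this scale understates the change of low genes. The comparison with GABA was a contrast of the 2 effects in 1 fit of 12 libraries. The code was tested on simulated data. With 3 libraries against 3, a permutation test of 1 gene cannot go below p = 0.10, so the model across genes was used.

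The genes named are the 12 largest rises and 12 largest falls among called genes whose replicates do not overlap, whose higher group mean reaches the median gene (570.3) and whose symbol is not provisional, the 4 members with the lowest p of each list, glutamate receptor and transporter genes, and 6 differences in each direction; a few genes that meet the rule are not reported here. Lack of overlap was thus fixed for these rises and falls and is likely for members chosen by a low p. The share of all tested genes without overlap is not given. The 41 lists were written from general knowledge, and the members and lists were chosen with earlier results of these data known. Pseudocount, filter, scaling, replicate block, other fits and leaving out each library were tried as alternatives. Same-numbered libraries did not deviate together (correlations -0.0098 to 0.0081), so numbers were not used to pair.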

Additional observations from a re-analysis of the deposited data

Results flagged for a closer look

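The responses to glutamate and GABA differed in 40 of the 43 genes for which the difference was examined, by limma's contrast of the effects over 12 libraries with adjustment over all genes; the exceptions were Serpinh1, Asns and Cdkn1c. Many of the 43 were taken for their large response to glutamate, or for a large difference itself, so the count does not describe genes at large. All values below are log2 differences, the glutamate effect minus the GABA effect.

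The difference was above 0 in 15 genes, among them growth, matrix and cell cycle genes: Gpnmb 0.88, Cst3 0.86, Igfbp5 0.77, Yap1 0.71, Egfr 0.69, Pon2 0.67, Cdkn1a 0.64, Pls3 0.62, Mmp2 0.58, Hmox1 0.55, Sorcs2 0.54, Tubb6 0.41, Tyms 0.38, Ccnd1 0.30 and Igfbp2 0.19.

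The difference was below 0 in 25 genes. Members of the lineage lists among them were Mag -0.83, Nfasc -0.67, Ugt8 -0.64, Tns3 -0.40, Gpr17 -0.39, Cnp -0.38, Sirt2 -0.37 and Matn4 -0.18. The others were Ptprt -1.18, Lpar1 -1.12, Tagln -1.01, Tmem163 -1.0, Rras2 -0.98, Adamts4 -0.84, Dock9 -0.83, Acan -0.78, Thsd7b -0.73, Kif26a -0.60, Mreg -0.58, Cav1 -0.56, Fgfbp3 -0.56, Grin3a -0.48, Gpr37l1 -0.43, Aldh1l1 -0.34 and Ccnd2 -0.25. The call of Matn4 was lost without untreated replicate 3 of the glutamate set, untreated replicate 1 of the GABA set or GABA replicate 3. The sets started from different untreated levels in separately scaled tables, for example 787 for Lpar1 in the glutamate set and 185 in the GABA set, and the part of those levels was not tested.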

How the results depend on the processing

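Genes higher with glutamate numbered 1412 to 1633 and genes lower 1434 to 1646 when each library was left out in turn, against 1753 and 1771 with all 6. Without a filter on low values the counts were 1533 and 1520, under quantile normalization 1659 and 1634, and with all 12 rat libraries in the fit 1595 and 1640. Tests against a minimum fold, added after the data were seen, left 241 higher and 92 lower genes at 1.2-fold, and 45 higher and 1 lower at 1.5-fold. Differences between the transmitters numbered 1029 to 1313 above 0 and 1150 to 1400 below 0 over the 12 libraries left out in turn. Of 165 genes examined under 2474 planned combinations of gene and setting, 2438 kept direction and call, 29 lost the call, 7 gained one and 0 reversed. Calls of Apoe, Rpl4, Cxcl12 and Nfkb2 were lost under quantile normalization; the cause was not tested. Quantile normalization also gave 4 lower BMP and TGF-beta genes, 1 higher NF-kB gene and 1 higher AMPA and kainate receptor gene, and the fit of 12 libraries 4 higher ribosomal protein genes and 3 higher heat shock genes. Rescaling moved the median log2 fold change over all genes to -0.0086 at most.

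Same-numbered libraries did not deviate together, so the pairing has no support beyond a shared number. With the replicate block, 1823 genes were higher and 1851 lower with glutamate, and 1301 differences were above 0 and 1352 below. The planned count-based fits with edgeR and DESeq2 were not run, because the whole reads they need, derived from the steps of the scaled values, were used for depth and replicate noise alone and were not accepted as the unit of the values. Genes near 10 reads, such as Mog, are limited by counting error.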

Other observations

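Among low-level genes, a few changed by more than the genes described above; they were picked after their values were seen, from the 45 higher and 1 lower genes past limma's test against a 1.5-fold change. Myof, for the membrane repair protein myoferlin, had scaled read counts of 21.2, 12.1 and 16.1 in untreated and 263, 260.4 and 256 in treated libraries. The log2 fold change was 3.93 ± 0.15, with every treated library far above every untreated one. Rgs8, a regulator of G protein signaling, had counts of 72.7, 60.6 and 73.4 untreated and 338, 313 and 286 treated (log2 fold change 2.17 ± 0.10). The receptor tyrosine kinase gene Ret rose from 40 ± 9.34 to 131 ± 12.2, and Pygm, muscle glycogen phosphorylase, from 27.6 ± 5.57 to 111 ± 2.19. The only lower gene past that test was Myh4, a myosin heavy chain, which fell from 114 ± 12.9 to 39.2 ± 9.33. Its groups did not overlap, and its log2 fold change was -1.53 ± 0.15.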
